A study of Caenorhabditis elegans with 2 samples.

Results

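The autophagy and vacuolar fusion genes are 37 of the 19973 protein-coding genes of the Caenorhabditis elegans nuclear chromosomes, listed by name for their known roles and sorted into 5 steps of autophagy. Initiation holds 5 of them, membrane nucleation 8, lipidation 11, cargo selection 5 and fusion with the lysosome 8. A gene was counted as bound by MXL-3 when a peak summit of the list that passed the irreproducible discovery rate (IDR) threshold lay from 1000 bp upstream to 200 bp downstream of one of its annotated transcript starts. IDR sets its threshold by how well peak ranks repeat between replicates. In these lists the peaks that passed were those with the highest signal values of the pooled list. Peaks of the pooled list that fell under this threshold were counted separately.

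MXL-3 was mapped by chromatin immunoprecipitation and sequencing (ChIP-seq) with an anti-GFP antibody in whole L4 larvae, in 2 biological replicates of 1 group. The worms were of strain OP745, which carries the array wgIs745 with mxl-3::TY1::EGFP::3xFLAG and an unc-119(+) rescue marker in the unc-119(tm4063) background. They were pooled males and females of 48 hours, from a culture that the labels give as starved at L1 after bleaching. The group has limits as a model: the binding measured was that of a tagged transgene product in 1 line, and DNA from all tissues was mixed, so binding in a few cells and weak binding in many cannot be told apart. There was no second condition, so every comparison below is between genes.

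Autophagy encloses cytoplasm in a double membrane and delivers it to the lysosome. A kinase complex starts the process, a lipid kinase complex marks the new membrane, ubiquitin-like proteins of the Atg8 family are coupled to lipid on it, receptors load the cargo, and tethers and a small GTPase fuse the finished autophagosome with the lysosome. MXL-3 is a basic helix-loop-helix leucine zipper protein of the Max-like family, known in C. elegans for repressing lysosomal lipase genes in fed animals. Proteins of this class bind E-boxes, hexamers of the form CANNTG, of which CACGTG is the best known.

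Sequences are shown for summits with CACGTG nearby and for the strongest summits without it. Of the 14 summits described below, 9 had CACGTG or CACATG within 100 bp and 5 had neither, those of atg-2, bec-1, atg-18, atg-16.1 and the weaker one of lgg-1. The first hexamer, CACGTG, lay within 100 bp of an IDR promoter summit, on either strand, at the genes atg-13, atg-9, epg-5 and rab-7. Those 4 sites are printed first, as 30 bases of RefSeq WBcel235 sequence in the direction of the gene, 5′ to 3′, with the hexamer in capitals. They lie at chrIII:8158571-8158600 on the minus strand for atg-13, chrV:349206-349235 on the plus strand for atg-9, chrII:6609567-6609596 on the minus strand for epg-5 and chrII:11967634-11967663 on the minus strand for rab-7.
atg-13: gttctcggccatCACGTGaagcaggcgcac
atg-9: ccacccgctgttCACGTGccccctccctcc
epg-5: attttccctcttCACGTGctgtgttcagtt
rab-7: tgacggccctgtCACGTGcactttttgccc
In all 4 a T preceded the hexamer in the printed direction. Over the 310 CACGTG sites at IDR promoter summits of any gene, 115, or 37.1%, had such a T on at least 1 strand; this base was picked after the sequences had been seen.

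The second set is the DNA around the strongest summits of the Atg8 genes lgg-1 and lgg-2 and of the Atg16 gene atg-16.2. None of those summits had CACGTG within 100 bp, and each had CACATG. The sequences run 60 bases to each side of the summit, on the minus strand, which is that of each gene, with CACATG or its reverse complement CATGTG in capitals; their length was chosen after the peak values were known. They lie at chrII:6348573-6348693 for lgg-1, chrII:6453528-6453648 for atg-16.2 and chrIV:10936094-10936214 for lgg-2.
lgg-1: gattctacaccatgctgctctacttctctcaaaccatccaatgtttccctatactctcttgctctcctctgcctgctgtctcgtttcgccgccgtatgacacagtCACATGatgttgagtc
atg-16.2: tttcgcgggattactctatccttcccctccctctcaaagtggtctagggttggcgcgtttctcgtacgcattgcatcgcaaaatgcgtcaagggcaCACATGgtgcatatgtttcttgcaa
lgg-2: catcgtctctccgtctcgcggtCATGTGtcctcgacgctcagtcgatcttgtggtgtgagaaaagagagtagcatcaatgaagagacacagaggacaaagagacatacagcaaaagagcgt
In these windows the hexamer did not stand at the summit itself. The lgg-2 and atg-16.2 summits each had a further copy within 100 bp, outside the printed bases.

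MXL-3 bound the promoters of 12 of the 37 genes, 32.4% (exact 95% binomial interval 18 to 49.8%), where 11.3% of all protein-coding genes were bound. The bound genes included the scaffold, vesicle and lipid-transfer genes of initiation and the Beclin and phosphoinositide reader genes of nucleation. Both Atg8 genes and both Atg16 genes were bound. At fusion they were epg-5, the gene of a tether, and rab-7, whose summit lay nearer the start of another gene. By step the share was 3 of 5 for initiation, 3 of 8 for nucleation, 4 of 11 for lipidation, 0 of 5 for cargo and 2 of 8 for fusion. The intervals of the steps overlapped, from 14.7 to 94.7% for initiation and from 0 to 52.2% for cargo, so no order of the steps was detectable with so few genes. Another 14 genes had a promoter summit only among the pooled peaks below the threshold, and 11 had none in either list.

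The 12 genes had 14 IDR promoter summits, since lgg-1 and lgg-2 had 2 each. Over all genes, 146 of the 2259 bound genes had 2 or more, which is 0.731% of all 19973 genes, bound or not. The signal value that the authors' peak caller gave the 14 peaks ran from 91.5 to 526 with a median of 170.3, against a median of 140.1 over all 1993 IDR peaks at promoters. The whole IDR list spanned 91.1 to 1445. The median distance to the start was 253.5 bp upstream, beside 251 bp over all pairs of a promoter peak and its gene, and the median GC content around the summit was 46.3% against 44.3%. All 14 summits had a summit within 100 bp in both replicate lists, as did 96.6% of all IDR promoter peaks. Of the 14, 11 were intergenic. The intergenic share over all IDR promoter peaks was not computed, so this count is not a result about the set.

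**Figure D1:**
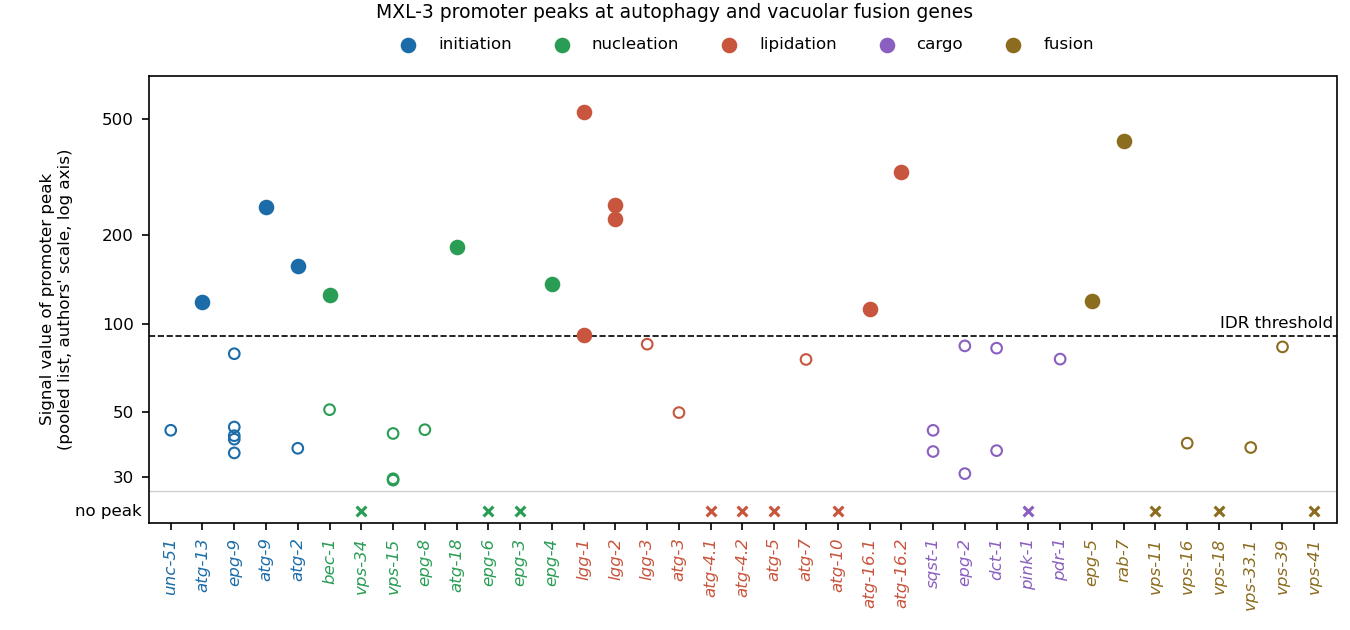
Signal value of every pooled promoter peak at each of the 37 genes, on the authors' scale and a log axis; filled points are in the IDR list, open points are below its threshold (dashed line), crosses are genes with no promoter peak in either list. The filled points run from 91.5 to 526, and no gene of the cargo step has one. With 11.3% of all protein-coding genes bound, this lack in so few genes does not set the step apart.

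At initiation, MXL-3 bound the genes for a subunit of the starting kinase complex, for the membrane protein of the seeding vesicles and for the lipid carrier, while the gene of the kinase itself was not counted. The promoter of atg-13, whose product is the scaffold of the kinase complex, had a peak at chrIII:8158432-8158807 with its summit 430 bp upstream and a pooled signal value of 119 at rank 2548. The replicate lists held it at signal value 51.6, rank 2684, in replicate 1 and 67.6, rank 2692, in replicate 2. Its rank was thus nearly the same in both, in the weaker part of the list.

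atg-9, which encodes the transmembrane protein of the vesicles that seed the membrane, had the strongest initiation peak. It lay at chrV:349173-349322, 152 bp upstream, with a signal value of 250.0 at rank 652. Replicate 1 gave 91.3 at rank 937 and replicate 2 gave 164.1 at rank 474. Both replicates placed it well above atg-13. For atg-2, the gene of the lipid-transfer protein that feeds the growing membrane, the peak at chrX:6808648-6809023 had a signal value of 157 at rank 1580, and ranks of 1443 and 1887 in replicates 1 and 2. This summit stood 259 bp upstream of an internal transcript start, in an exon of the noncoding RNA gene M03A8.6, and the gene was not counted when only the most upstream start was used.

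The other 2 initiation genes had strong binding just outside the window. unc-51, the gene of the Atg1/ULK kinase, had an IDR summit 1414 bp upstream with a signal value of 178 at rank 1257, and inside the window only a summit below the threshold. epg-9, the gene of the Atg101 partner of ATG-13, had an IDR summit in its own intron with a signal value of 255 at rank 622, which lay 1060 bp upstream of an internal start. A second one stood 1333 bp upstream, at 148 and rank 1746. With the window extended to 2000 bp upstream, all 5 initiation genes had an IDR summit, where 15.2% of all genes had one. That window also added 2 cargo genes, and none of nucleation, lipidation or fusion.

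At nucleation, binding was found at the genes of Beclin, of a phosphoinositide reader and of a membrane protein of the endoplasmic reticulum, and not at those of the lipid kinase or its regulatory subunit. bec-1, the Beclin gene, had its peak at chrIV:5664579-5664954, 342 bp upstream in the exon of the small nucleolar RNA gene T19E7.29, with a signal value of 125 at rank 2333. Replicate 1 gave 60.4 at rank 2021 and replicate 2 gave 62.7 at rank 3062. atg-18, the gene of a WIPI protein that reads phosphatidylinositol phosphate on the membrane, had the highest signal value of the step, 183 at rank 1178, at chrV:8631371-8631746 and 232 bp upstream. It ranked 1512 in replicate 1 and 1084 in replicate 2.

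epg-4, the gene of the EI24 membrane protein, had a peak at chrIII:7181813-7182188 with a signal value of 137 at rank 1999. The summit was 166 bp upstream and had CACATG within 100 bp. Its replicate ranks were 2775 and 1810. Neither atg-18 nor bec-1 had CACGTG or CACATG within 100 bp of the summit. Of the remaining 5 nucleation genes, vps-15 for the regulatory subunit and epg-8 for the Atg14 homologue had summits below the threshold. No promoter summit of either list was found for vps-34, the lipid kinase gene, epg-6, a second WIPI gene, or epg-3, the VMP1 homologue.

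Lipidation held the peak with the highest signal value of the 14, that of lgg-1. The 2 Atg8 genes and the 2 Atg16 genes were bound, 4 of 4, whereas the other 7 genes, for the conjugation enzymes, the Atg4 proteases, ATG-5 and the Atg12 homologue, were bound in 0 of 7, beside 11.3% of all genes. These subgroups were drawn after the values were seen, and the split was not tested.

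lgg-1, the gene of the Atg8 homologue most used to mark autophagosomes, had the highest signal value among the 14 peaks. That peak lay at chrII:6348496-6348777, 914 bp upstream, at 526 and rank 97. Replicate 1 gave 252.5 at rank 80 and replicate 2 gave 277.2 at rank 124. It was thus among the top of every list. A second lgg-1 peak at chrII:6347752-6348127 was 221 bp upstream with a signal value of 91.5 at rank 3910, just inside the threshold, and ranked 2550 in replicate 1 and 4405 in replicate 2. By contrast the strongest peak of any gene of the set left just outside was at lgg-3, at 85.2 and rank 4383.

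lgg-2, the second Atg8 gene, had a pair of nearly equal peaks, counted at different starts. The peak at chrIV:10935966-10936341 was 251 bp upstream with a signal value of 253 at rank 633, and ranked 737 and 562 in replicates 1 and 2. The peak at chrIV:10935484-10935634 was 513 bp upstream of an internal start, within an lgg-2 intron. Its summit lay between the starts, nearer the first, but too far downstream to count there. It had a signal value of 228 at rank 780, and ranked 1156 and 629. Both had CACATG within 100 bp.

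The Atg16 genes, whose products hold the conjugation machinery on the membrane, differed from each other. atg-16.2 had a signal value of 329 at rank 352, at chrII:6453493-6453646 and 197 bp upstream, with 137.8 at rank 390 in replicate 1 and 190.7 at rank 334 in replicate 2. atg-16.1 had 113 at rank 2774, at chrX:4462352-4462727 and 75 bp upstream, with 50.7 at rank 2770 and 61.0 at rank 3220. The ranks of atg-16.2 were the higher in both replicates, and with 2 replicates the difference was given no test. Neither CACGTG nor CACATG lay within 100 bp of the atg-16.1 summit.

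Among the other lipidation genes, lgg-3 (the Atg12 homologue), atg-3 (the enzyme that passes Atg8 to lipid) and atg-7 (the activating enzyme) had promoter summits below the threshold. atg-4.1 and atg-4.2 (the Atg8 proteases), atg-5 (the partner of Atg12) and atg-10 (the enzyme that passes Atg12 to ATG-5) had none in either list.

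No cargo gene had an IDR summit in its window. With 11.3% of all protein-coding genes bound, the lack of such summits in 5 genes does not set the step apart. Below the threshold, 4 of 5 had a summit, where 33.4% of all genes without an IDR promoter summit had one. IDR peaks stood farther upstream of a pair of the cargo genes. sqst-1, the gene of the p62 receptor for ubiquitinated cargo, had an IDR summit 1774 bp upstream with a signal value of 342 at rank 321, which was 1184 bp from the nearest start, that of mrpl-51. dct-1, the gene of the BNIP3-like mitophagy receptor, had 3 such summits, at 1284, 1930 and 2644 bp upstream. Their signal values were 95.6, 124 and 237, at ranks 3640, 2371 and 725. The cargo share therefore rested on where the window ended: at 2000 bp upstream sqst-1 and dct-1 were counted. For dct-1 that count rested on the weaker summits, at 1284 and 1930 bp. epg-2, an adaptor for germline granule proteins, and pdr-1, the Parkin ubiquitin ligase, had only peaks below the threshold. pink-1, the kinase that recruits Parkin to mitochondria, had none.

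At fusion, the small GTPase and a tether were bound. None of the 6 genes for subunits of the HOPS complex, which tethers membranes to the lysosome, was bound, and with 11.3% of all genes bound a count of 0 of 6 does not set them apart. The summit counted for rab-7, at chrII:11967597-11967813, had a signal value of 419.9 at rank 179. It ranked 333 in replicate 1 at 147.7 and 135 in replicate 2 at 271.1. This was the second highest of the 14 peaks, but its gene is uncertain: the summit lay 784 bp upstream of rab-7, 171 bp upstream of W03C9.5 on the same strand and 922 bp upstream of mex-1 on the other. It was the 1 peak of the 14 that lay in the windows of several genes, as did 20.0% of all IDR promoter peaks. epg-5, the gene of the tether that joins autophagosomes to late endosomes, had a peak at chrII:6609433-6609808, 256 bp upstream, with a signal value of 119.9 at rank 2511 and replicate ranks of 2909 and 2740.

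Of the HOPS genes, vps-16, vps-33.1 and vps-39 had summits below the threshold. vps-11, vps-18 and vps-41 had none in either list.

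**Figure D2:**
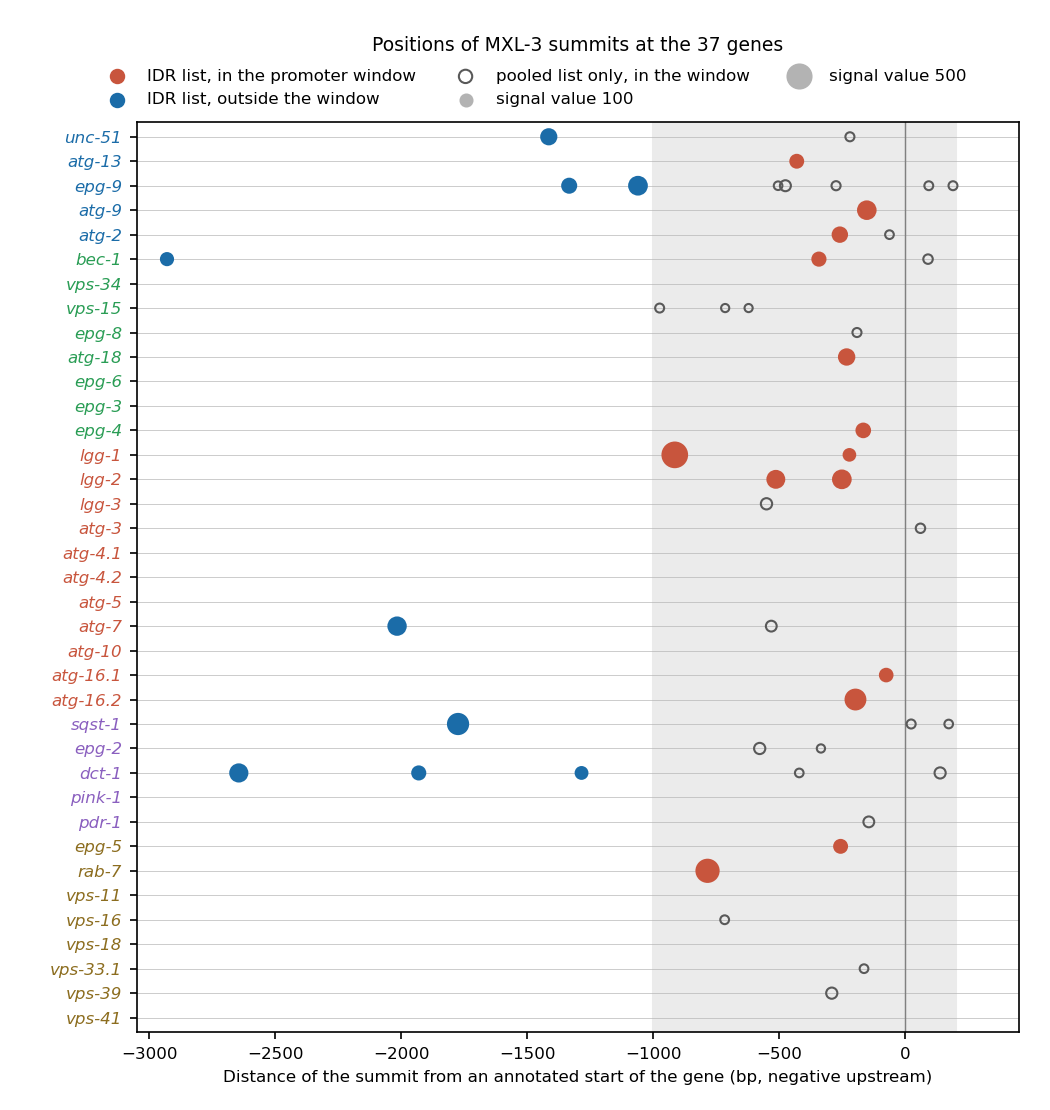
Distance in bp of each MXL-3 summit from an annotated start of each of the 37 genes, negative upstream, with the area of a point set by its signal value and the counted window shaded. Summits outside the window (blue) within 2000 bp stand at unc-51, epg-9, sqst-1 and dct-1, which had no IDR summit inside it.

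Of the 25 genes not bound, 14 had a pooled promoter summit below the threshold, where 33.4% of all genes without an IDR promoter summit had one. These genes had 23 such summits, of which 8 were matched in both replicate lists; over all pooled peaks below the threshold 36.1% were. The pooled list holds background by its making, so such a summit is weaker evidence of binding. The best ranks of the 14 fell into 7 genes near the threshold and 7 far from it.

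The nearer 7 ranked from 4383 to 5277, with signal values from 75.6 to 85.2. In order of rank they were lgg-3, epg-2, vps-39, dct-1, epg-9, pdr-1 and atg-7, and 5 of these 7 summits were matched in both replicates. For lgg-3 the summit 550 bp upstream lay in the 5′ UTR of the divergent gene rgs-5 and was matched in replicate 2 alone, at rank 3238. At epg-2 it was 577 bp upstream and ranked 6541 and 4013 in replicates 1 and 2. The summit of vps-39, 291 bp upstream, ranked 9601 and 3867, and that of dct-1, 139 bp downstream of the start and in its own coding sequence, ranked 7540 and 4216. The 3 of these with a summit in both lists were placed higher by replicate 2 than by replicate 1.

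The epg-9 summit 475 bp upstream of a start had no match in replicate 1 and rank 4175 in replicate 2. pdr-1 differed in that replicate 1 placed it higher, at rank 8625 against 11033, and its summit 144 bp upstream also stood 145 bp upstream of the divergent gene cyk-4. The atg-7 summit, 531 bp upstream, lay in the coding sequence of let-70 and ranked 14298 and 4950. The IDR threshold is itself set from ranks in the replicates and splits the pooled peaks by signal value. These ranks are therefore not set against those of the bound genes.

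The farther 7 were atg-3, epg-8, unc-51, sqst-1, vps-15, vps-16 and vps-33.1, from rank 11580 for atg-3 to 19952 for vps-33.1. Their signal values ran from 37.9 to 49.9. Only 1 of these 7 summits, that of vps-15, was matched in both replicates, at ranks 26051 and 25057. The median best rank of the 14 genes was 8428, against 14012 for all such genes.

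**Figure D3:**
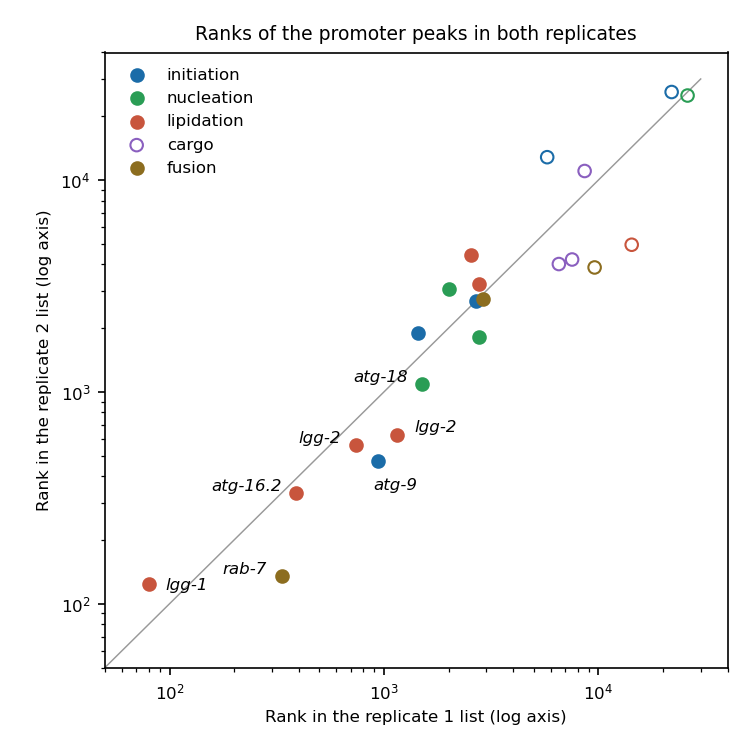
Rank of each promoter summit matched in both replicate lists, replicate 1 against replicate 2, both on log axes; filled points are in the IDR list, open points below its threshold, and the line marks equal rank. The 14 filled points run from lgg-1 at ranks 80 and 124 to the second lgg-1 peak at 2550 and 4405.

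CACGTG was found within 100 bp of 4 of the 14 IDR promoter summits, where 14.6% of all IDR promoter peaks had it. These are the atg-13, atg-9, epg-5 and rab-7 sites printed above. The nearest base of the hexamer lay 10 bp from the summit at atg-9, 32 bp at atg-13, 37 bp at epg-5 and 64 bp at rab-7. CACATG was found at 5 of the 14, against 15.4%, namely 2 lgg-2 summits and 1 each at lgg-1, atg-16.2 and epg-4. Together 9 of the 14 had one or the other hexamer, against 28.1% of all IDR promoter peaks. These 2 hexamers did not stand alone among the 10 distinct E-boxes. CAGCTG was at 4 of the 14 summits, those of atg-9, atg-18, lgg-2 and rab-7, against 6.02% of all IDR promoter peaks. CAGATG was at 4 as well, those of atg-13, bec-1, epg-4 and rab-7, against 8.58%. The share at the 14 summits was above that of all IDR promoter peaks for 9 of the 10 hexamers, in steps of 1 summit in 14, so no hexamer was singled out by these counts. No summit of the 14 had both CACGTG and CACATG. Of all 1993 IDR promoter peaks, 290 had CACGTG, 307 had CACATG and 561 had either, so few had both there too. This lack is thus not a trait of the set. By step, CACGTG was at 2 of 3 initiation summits and 2 of 2 fusion summits. CACATG was at 4 of 6 lipidation summits and 1 of 3 nucleation summits. These counts describe letters near summits, and no site was tested for binding.

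CACGTG in the promoter window and a bound promoter did not always go together. The hexamer occurred in the window of 9 of the 37 genes, where 21.5% of all genes had it. Of those 9, 4 were bound, against 17.5% of all genes with the hexamer. The unbound 5 were epg-9, atg-3, sqst-1, epg-2 and pink-1. Conversely 8 of the 12 bound genes, among them lgg-1, lgg-2 and atg-16.2, had no CACGTG anywhere in the window, as was so for 66.8% of all bound genes.

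Several genes of the set follow another gene closely on the same strand. Such a neighbour within 500 bp upstream was found for 11 of the 37 genes, where 18.1% of all genes had one. In C. elegans such genes can be transcribed together from the promoter of the first gene, and no annotation of such units was used. Of these 11 genes 2 were bound, atg-18 and epg-4, where 7.06% of all such genes were. Of the other 26 genes 10 were bound, against 12.2% of all genes without a close neighbour.

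The close followers included 6 of the 11 genes with no promoter summit in either list, vps-34, atg-4.2, atg-10, pink-1, vps-11 and vps-41. The same share over all genes without a summit was not computed, so this count is not a result about the set. Over all genes, close followers were bound less often than the others, 7.06% against 12.2%. atg-7 stood 30 bp behind let-70 on the same strand, and an IDR peak with a signal value of 243 at rank 679 lay in the windows of let-70 and klc-1, 2016 bp upstream of atg-7. Whether transcription of atg-7 begins there was not tested.

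Another 20 genes of cargo selection, endosome maturation and membrane fusion were counted in the same way. Of these, 8 were bound, 40.0% (exact 95% interval 19.1 to 63.9%), where 11.3% of all protein-coding genes were. The list was chosen with earlier results of these data known, so its share is not independent support. epg-7, a scaffold for the degradation of SQST-1, had the highest signal value, 300.5 at rank 430, 190 bp upstream with CACGTG within 100 bp of the summit. The ranks of that summit were 578 and 375 in replicates 1 and 2. allo-1, the adaptor that removes paternal mitochondria, had 170 at rank 1380, 277 bp upstream with CACATG. None of the 5 cargo genes of the main list was bound. Of the other cargo genes, epg-7 and allo-1 were bound, and sepa-1 and fndc-1 were not.

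Of the endosomal genes, rab-5, the early endosome GTPase, had 267 at rank 566, in a window shared with nmat-2. unc-108, the Rab2 gene, had 180.3 at rank 1228 and 91.8 at rank 3887. ppk-3, the PIKfyve lipid kinase gene, had 191 at rank 1091. All of these summits were matched in both replicates.

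vps-45, which encodes a fusion protein of early endosomes, had 131 at rank 2141, and mtm-3, a myotubularin lipid phosphatase gene, had 117 at rank 2603. arl-8, the lysosomal GTPase gene, had 107 at rank 3031, but that summit stood 10 bp upstream of nuo-3. The 8 genes sepa-1, fndc-1, vamp-7, ccz-1, vps-8, vps-33.2, rab-10 and mtm-1 had summits below the threshold. Over all genes without an IDR promoter summit, 33.4% had one. The 4 fusion genes syx-17, snap-29, vti-1 and sand-1 had no promoter summit in either list.

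The count of bound genes moved with the rule. It was 7 when IDR peaks above the median signal value alone were used, where 5.99% of all genes were bound, and 16 with a window of 2000 bp upstream, where 15.2% were. Taking the same number of peaks from replicate 1 alone gave 12 genes and from replicate 2 alone 14, and all 12 bound genes were in both. The genes atg-9, atg-18, lgg-1, lgg-2 and atg-16.2 were counted under all 8 rules. For lgg-1 this took both of its peaks. A window of 500 bp upstream held only the weaker one, 221 bp upstream at rank 3910. The IDR peaks above the median signal value held only the stronger one, 914 bp upstream at rank 97. atg-13, bec-1, epg-4, atg-16.1 and epg-5 were lost with that smaller list alone, atg-2 with the most upstream start alone, and rab-7 with the shorter window and with assignment to the nearest start.

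**Figure D4:**
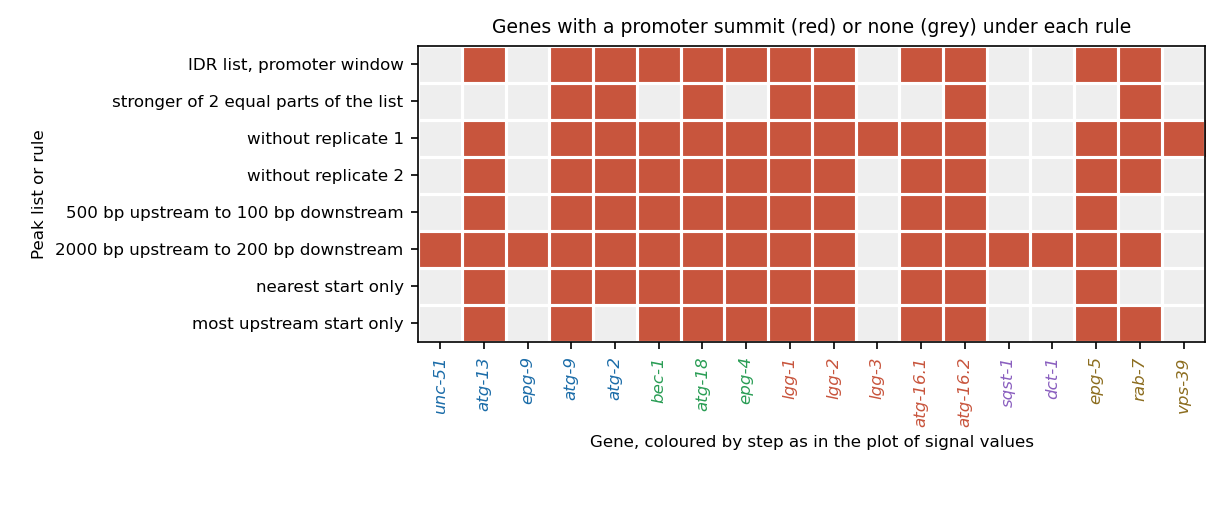
Each gene (columns) that had a promoter summit under at least 1 of 8 peak lists or rules (rows), red where it had one and grey where it had none; a row without a replicate uses the highest peaks of the other replicate. The 5 columns atg-9, atg-18, lgg-1, lgg-2 and atg-16.2 are red in every row.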

How the data were processed

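The deposited files were peak lists, 1 for each replicate, a pooled list of 30000 peaks and a list of 3935 that passed the IDR threshold. The signal value of a peak and its −log10 q-value are the authors' own; the aligner, the peak caller and the definition of the signal value were not given in the sources used here, and the genome build was ce11 (WBcel235) per the labels. Read depth is unknown from these lists, and the control library was not analysed here. All IDR peaks were also in the pooled list, where they were the highest by signal value; the others were taken as below the threshold.

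Summits were compared with transcript starts of Ensembl release 115 with Python 3.11.15, numpy 2.4.6, pandas 2.3.3 and scipy 1.17.1, and the scripts were checked on simulated data. A replicate match was a summit within 100 bp. Signal values were compared within a list, and ranks between lists are given side by side. E-boxes were sought on both strands of the RefSeq WBcel235 sequence within 100 bp of a summit. Shares carry exact Clopper-Pearson 95% intervals, which cover counting error only. No p-value was computed: there was 1 group, and the counts stand beside the same share over all genes.

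The genes, lists and tests were chosen with earlier results of these data known. Every gene of the set is named, with values for each bound gene and the strongest summit of the others. Sequences on chromosome I were not printed. The alternatives were another peak set, replicate, window, assignment, start or distance.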

Additional observations from a re-analysis of the deposited data

How the results depend on the processing

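No paired analysis was possible because there was only 1 group. The number of bound genes was 7 with IDR peaks above the median signal value alone and 11 to 16 under the other 6 alternatives, against 12. The share of all genes bound, 11.3%, was 5.99% with that smaller list, 8.55% with a window of 500 bp upstream to 100 bp downstream, 15.2% with 2000 bp upstream, 9.27% with the nearest start only and 10.1% with the most upstream start only. It was 10.6 to 11.4% with 1 replicate left out. Genes with a summit only below the threshold numbered 7, against 14, when a match in both replicates was asked for, and 10 to 15 otherwise. The share over all genes without an IDR promoter summit moved as well. It was 15.7%, against 33.4%, with that match and 20.2 to 45.7% otherwise. CACGTG lay at 2 IDR promoter summits of that smaller list, against 4, and at 3 or 4 under the other alternatives. All 14 IDR promoter summits were matched in both replicates at 50 and 200 bp. The lists give no read counts, so a gene without a summit was not shown to lack binding, and 2 replicates of 1 line allow no test between genes. Whether binding changes expression of any gene was not measured.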

Other observations

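Several IDR summits near these genes, strong and weak, lay outside the promoter windows. Beyond the 3′ end of bec-1, 5 IDR summits stood within 5 kb, 4 of them in introns of skn-1, the gene of a stress-response transcription factor, and 1 in the exon of the noncoding RNA gene T19E7.27 nearby. The strongest had a signal value of 232 at rank 755. Downstream of lgg-1 a summit lay 9 bp past the gene end, with a signal value of 104 at rank 3207, in the window of C32D5.8. A summit 139 bp past the end of atg-3, with a signal value of 112 at rank 2789, lay in the 5′ UTR of rbm-39. Which gene, if any, such summits serve was not tested.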
